A study of Daphnia magna with 2 samples.

Results

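RNASEX25 is the gene that the deposited gene list names with the human symbol RNASET2 and the fly symbol RNASEX25, on contig m000028F_a0.112. It was the only gene with RNASEX25 as its second symbol, 1 of 33957 genes, and it was singled out for its high level in these data, so its levels are given as a description and not as a test. T2 ribonucleases are endonucleases that cut single-stranded RNA, most of them at acid pH, and occur in nearly all eukaryotes. In humans RNASET2 works in lysosomes and is also secreted, and RNaseX25 is the T2 enzyme of the fruit fly Drosophila melanogaster. Its place in the cells of a crustacean is taken here from these symbols alone.

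Single-cell transcriptomes came from whole Daphnia magna, a water flea kept under standard culture, dissociated with collagenase at 4 mg/ml and barcoded with inDrops, a droplet method in which hydrogel beads give polyA RNA a cell barcode and a molecular identifier (UMI). The title of the mixed sample names males and females as well as young and old, and that of the young sample names young and collagenase; both carry whole body as tissue, the same dissociation and the same culture, and no genotype, age in days or number of pooled animals was given. Each group is 1 sample, so no test between them was possible. The design text speaks of comparisons by sex, age, and body or head, but the barcode lists carry only short library codes that are not spelled out: FO1, FYB, FO2, FYH, F4W, MY1 and MY2 in the mixed sample, each with 2 lanes, and CH2, CH1 and Y2 in the young sample.

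A minimum of 500 UMIs left 2253 barcodes with 2779211 UMIs in the mixed sample and 2099 barcodes with 2314350 UMIs in the young sample, which are treated as cells. Median depth was 940 UMIs in the mixed sample and 829 in the young sample. The barcode lists hold row numbers and not barcode sequences, so barcodes shared between libraries were not counted. Intervals are exact at 95% and cover counting error only. CPM is counts per 1000000 UMIs of the sum over kept barcodes, without correction for gene length.

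RNASEX25 took 11785 UMIs in the mixed sample, 4240 CPM (interval 4164 to 4318), and 6619 UMIs in the young sample, 2860 CPM (interval 2791 to 2930). By UMIs it stood at rank 5 among genes in the mixed sample and at rank 16 in the young sample. The ratio of mixed over young was 1.48 (interval 1.44 to 1.53), 0.57 on the log2 scale. The median log2 ratio was 0.52 over the 8011 genes with at least 50 UMIs summed over both samples, a count under 3 being set to 3. Of these genes, 48.4% had a higher ratio than RNASEX25. Relative to that median the gene was 0.04 higher in the mixed sample on the log2 scale, and without the code FYB the mixed level was 2293 CPM and the log2 ratio -0.32. In whole-body sums, fewer cells of a type and less RNA per cell cannot be told apart.

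The level differed far more between library codes than between the samples. Among the mixed codes, FO1 had 8048 CPM (interval 7501 to 8625), FYB 6372 (6237 to 6510), FO2 5932 (5574 to 6307), FYH 5133 (4836 to 5443) and F4W 4316 (3697 to 5009). The remaining mixed codes were MY1 at 320 CPM (260 to 390) and MY2 at 193 (160 to 231). Among the young codes, CH2 had 3842 CPM (3711 to 3977), CH1 3278 (3163 to 3395) and Y2 528 (468 to 594). So 5 mixed codes lay above all 3 young codes and the other mixed codes, MY1 and MY2, lay below all of them. In this order FYB and FO2, FYH and F4W, and F4W and CH2 had overlapping intervals. By rank among the genes of a code, RNASEX25 was 2 in FO1 and 4 in FYB, but 340 in Y2, 621 in MY1 and 1325 in MY2.

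**Figure D1:**
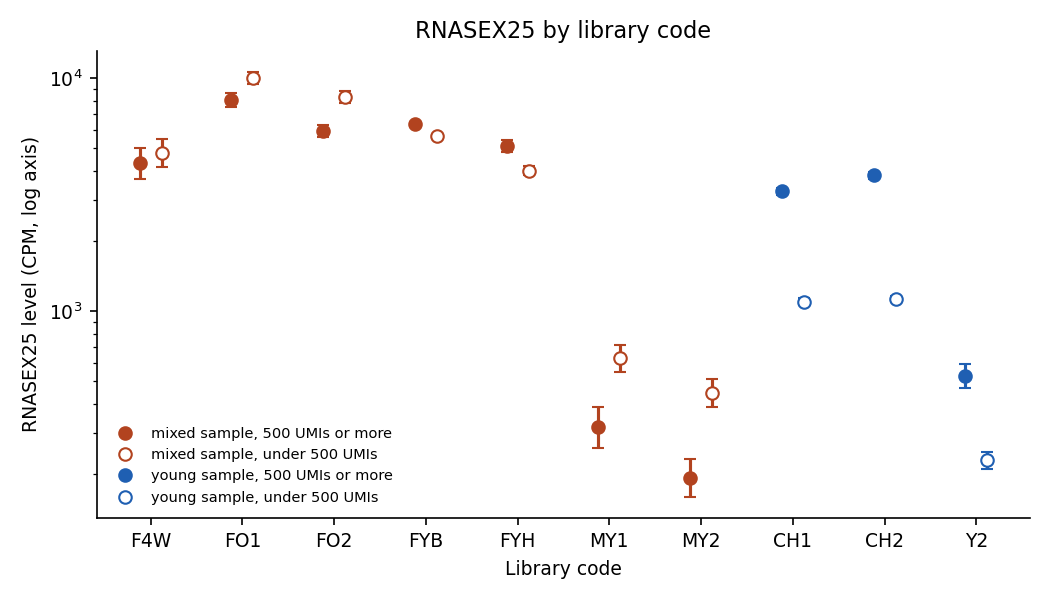
RNASEX25 level in CPM (log axis) for each library code, mixed codes in red and young codes in blue, with exact 95% Poisson intervals; filled points are barcodes of at least 500 UMIs and open points those below. MY1 and MY2 lie at 320 and 193 CPM while the other mixed codes lie between 4316 and 8048 CPM, and the open points fall below the filled ones in all 3 young codes.

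Counting error understates the spread within a code. The 2 lanes of F4W had 2149 CPM (interval 1535 to 2926) and 6195 CPM (5187 to 7342), from 20 and 21 barcodes. Those of FO1 had 5149 and 10208 CPM, and those of FO2 4672 and 7320 CPM. Lanes of FYB, the code with most barcodes (1103), were closer, at 6683 and 6121 CPM. The order among F4W, FO1, FO2, FYB and FYH therefore differed between lanes, whereas every lane of MY1 and MY2 stayed between 152 and 389 CPM.

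Barcodes with an RNASEX25 UMI were frequent in some codes and rare in others. At least 1 UMI was found in 55.9% of mixed barcodes (interval 53.8 to 57.9; 32.3% without FYB) and in 50.3% of young barcodes (48.1 to 52.4). At an equal level in every barcode, counting alone would have given 96.6% in the mixed sample and 89.9% in the young sample, so the gene was unevenly spread. After each barcode was thinned to 500 UMIs the shares were 47.4% and 41.4% for mixed and young barcodes. By code the unthinned share was 80.5% in FYB, 70.3% in FO2, 67.0% in FYH, 63.2% in FO1 and 31.7% in F4W, against 14.6% in MY1 and 9.96% in MY2. In the young sample it was 63.5% in CH2, 58.7% in CH1 and 20.8% in Y2. The level of F4W rested on few barcodes, since 13 of 41 had any UMI and the highest 5 held 84.4% of its RNASEX25 UMIs.

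The UMIs were concentrated in few barcodes. The 226 highest of 2253 mixed barcodes held 59.7% of that sample's RNASEX25 UMIs, and the 210 highest of 2099 young barcodes held 60.0%. Among 500 drawn UMIs, 10 or more were RNASEX25 in 6.39% of mixed barcodes (144, interval 5.42 to 7.48) and in 2.86% of young barcodes (60, interval 2.19 to 3.66). These came to 12.6% of FO1, 9.66% of FO2, 9.34% of FYB, 7.32% of F4W and 6.70% of FYH, but 1 of 452 barcodes in MY2 and 0 of 246 in MY1, which allows up to 1.49%. In the young sample they were 4.78% of CH2 and 3.13% of CH1, and 0 of 557 in Y2, which allows up to 0.660%. The highest single barcodes carried 101 UMIs in FO1 and 90 in CH2. The Fano factor of the thinned counts, variance over mean and 1 for counting noise alone, was 7.94 in the mixed sample and 6.73 in the young sample, with 15.3 in FO1 as the highest of a code and 2.28 in Y2 as the lowest.

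**Figure D2:**
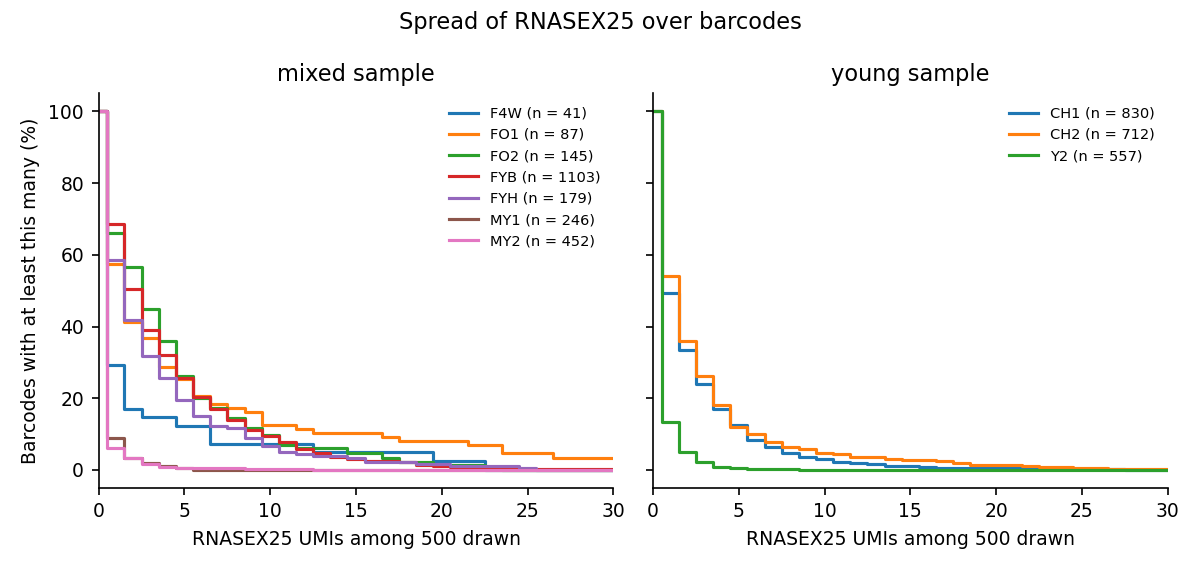
Percent of barcodes (vertical axis) with at least a given number of RNASEX25 UMIs among 500 drawn UMIs (horizontal axis), 1 line per library code, mixed sample left and young sample right. The lines of MY1, MY2 and Y2 drop to 8.94%, 5.97% and 13.5% at 1 UMI, while FO1 keeps 12.6% of its barcodes at 10 UMIs or more.

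Clusters show where these barcodes sat. Both samples were clustered together with RNASEX25 left out, which gave 32 clusters, 27 of them with at least 20 barcodes. Of these 9 could be named from marker lists, as hemocyte-like, epidermis-like, neuron-like, muscle-like, ion-transport epithelium-like or proliferating cell-like, which are cell classes of a whole animal. No cluster met the rule for photoreceptors, fat cells, digestive epithelium or germline. A class gave its name to a cluster where at least 3 of its markers passed, more than of any other class. A marker of that class also had to be among the 10 leading genes of the cluster, where no other class could have more. Clusters 12 and 22 had 5 passing markers of a class, hemocyte and proliferating cell, but 0 among those genes, and stay unnamed. Cluster 7, named hemocyte-like, had 5 of 32 hemocyte markers that passed, but also 4 of 9 fat cell markers. The 3 clusters with the highest level held 25.2% of RNASEX25 UMIs in 7.10% of barcodes.

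The highest level was in cluster 16, 28026 CPM (interval 26870 to 29219), with a UMI in 98.8% of its 80 barcodes at a median of 796 UMIs. It held 75 young and 5 mixed barcodes and stays unnamed, since no class had more than 1 marker past the rule in it; its leading gene was KLKB1/CG8172 (DAPMA1EVG029160). Next came cluster 8 with 10552 CPM in 200 barcodes, also unnamed, whose leading genes include AQP3/EGLP4 (DAPMA1EVG024263), an aquaporin water channel. After it came cluster 26, ion-transport epithelium-like, with 9871 CPM (interval 8733 to 11116) in 29 barcodes, of which 58.6% had a UMI. The lowest levels were 58.6 CPM in cluster 22, from 4 UMIs,, 118 CPM in cluster 0 and 199 CPM in cluster 3, proliferating cell-like. In cluster 0, with 326 of its 423 barcodes from Y2, 6.62% of barcodes had a UMI at a median of 615 UMIs, and in cluster 22, all mixed, 6.78% at a median of 828 UMIs. These clusters were picked for their low level, so their low shares are a description and give no background for other clusters or codes.

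**Figure D3:**
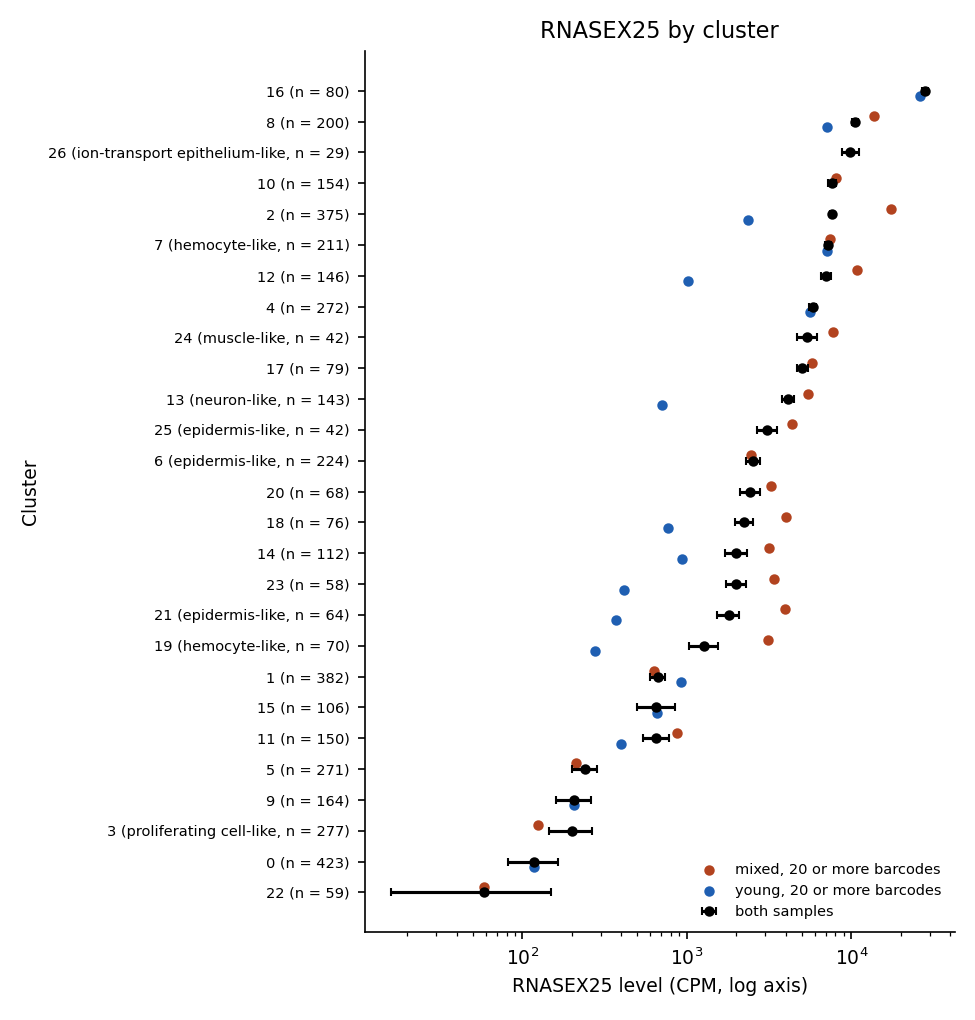
RNASEX25 level in CPM (log axis) per cluster of at least 20 barcodes, ordered by level; black points with exact 95% intervals are both samples, red the mixed and blue the young sample where it has at least 20 barcodes in the cluster. Levels run from 58.6 CPM in cluster 22 to 28026 CPM in cluster 16, and in cluster 2 the mixed point lies at 17354 CPM and the young point at 2337 CPM.

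Of the 144 mixed barcodes with 10 or more among 500 UMIs, 52 were in cluster 2 and 25 in cluster 8. Of the 60 such young barcodes, 47 were in cluster 16, 5 in cluster 7 and 5 in cluster 8. The clusters that held most of the high barcodes thus differed between these libraries. Cluster 16 had only 5 mixed barcodes, and all 5 were among the high ones, as were 47 of its 75 young barcodes. By code, cluster 2 had 20336 CPM in FYB and 7961 CPM in FO2, against 2508 CPM in CH1, 2376 in CH2 and 1973 in Y2. Cluster 2 is unnamed.

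Across the 12 clusters with at least 20 barcodes in each sample, the mixed level was above the young one beyond counting error in 10, below it in 1 and not separable in 1. Over whole samples the median gene had a log2 ratio of mixed over young of 0.52. How many other genes were higher in mixed barcodes of these clusters was not counted. In cluster 12 it was 10759 CPM in mixed and 1020 in young barcodes, a ratio of 10.5 (interval 7.95 to 14.3). In neuron-like cluster 13 it was 5430 CPM in mixed and 711 in young barcodes, a ratio of 7.64 (interval 5.23 to 11.6). Cluster 7, hemocyte-like, did not separate the samples, with 7439 CPM in mixed and 7067 in young barcodes, a ratio of 1.05 (interval 0.957 to 1.16), and its codes were alike too, 7309 CPM in FYB, 7355 in CH1 and 6922 in CH2. Cluster 1 was the exception in direction, with 635 CPM in mixed and 920 in young barcodes, a ratio of 0.69 (interval 0.514 to 0.942). Barcodes of a cluster come from 1 sample per group, so these intervals do not stand for a difference between conditions.

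The low codes also differed in which clusters they filled. Clusters in which proliferating-cell markers outnumbered those of other classes, 5 in all, held 74.0% of MY1 and 84.3% of MY2 barcodes, against 10.6 to 61.0% of the other mixed codes. Inside them RNASEX25 was at 39.1 CPM in MY1 and 33.7 in MY2, below the 186 to 1027 CPM of the other mixed codes there. The codes also filled different ones of these clusters, with 212 FYB barcodes in cluster 1 but 165 and 172 MY2 barcodes in clusters 3 and 5. Outside the 5 clusters RNASEX25 was at 1168 CPM in MY1 (interval 938 to 1438) and 1221 in MY2 (995 to 1484). That was still below the 5650 to 12807 CPM of the other mixed codes outside them. Y2 held 4.85% of its barcodes in these clusters and had 555 CPM outside them, against 4049 in CH1 and 4765 in CH2.

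The level did not simply follow depth. In FYB it was 5252 CPM in barcodes of 50 to 100 UMIs, 5550 at 100 to 200, 6154 at 200 to 500, 6601 at 500 to 1000, 7591 at 1000 to 2000 and 4968 above 2000 UMIs. In CH2 it was 623, 886, 1999, 4166, 5034 and 1892 CPM over the same bands. Barcodes under 500 UMIs thus carried nearly as much RNASEX25 per UMI as kept ones in FYB, but much less in CH2. In FYB barcodes of 50 to 100 UMIs the Fano factor was 1.11, close to counting noise, and kept FYB barcodes in the 16 clusters with at least 20 of them ranged from 810 CPM in cluster 1 to 20336 CPM in cluster 2. The part of free RNA in the level of FYB was not tested.

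Genes that rose with RNASEX25 across barcodes were then listed. For each gene with at least 50 UMIs in a sample, Pearson's r was taken between its log-scaled count per 10000 and that of RNASEX25, with values centred within library code and RNASEX25 left out of all totals. A gene was said to rise with it at r of at least 0.2 and to fall at r of at most -0.2. In the mixed sample 49 of 6623 genes rose (0.740%) over 2253 barcodes, and in the young sample 182 of 5637 (3.23%) over 2099 barcodes. These counts depend on the depth used: after thinning to 500 UMIs they were 23 and 91, and with a minimum of 1000 UMIs the mixed count was 118, so genes near 0.2 are called less firmly than those well above it. With a minimum of 300 UMIs the mixed count was 23, and without centring the counts were 130 and 275. Barcodes share libraries, depth and free RNA, so r is a description of these libraries and has no p-value. The median r was -0.02 in the mixed sample and -0.01 in the young sample, and the highest was 0.394 and 0.568.

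Of the genes that rose, 33 did so in both samples, 67.3% of the mixed list and 18.1% of the young list, and 14 of them carry no symbol. Over the 4802 genes measured in both samples, r in mixed and r in young barcodes correlated at 0.668 across genes, which are not independent. In all 8 codes with at least 100 barcodes, r was above 0 for 24 of the 33. Codes were not left out when the 33 were chosen, so this count is a description too.

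**Figure D4:**
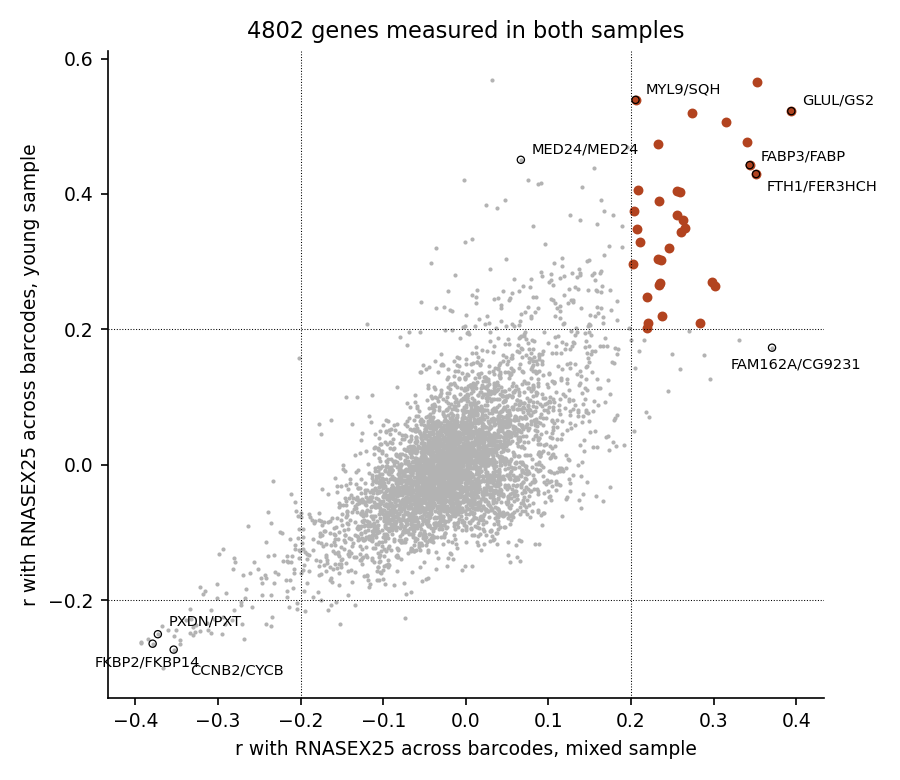
Pearson r with RNASEX25 across barcodes in the mixed sample (horizontal axis) and the young sample (vertical axis) for 4802 genes; dotted lines mark 0.2 and -0.2, and filled red points are the 33 genes at 0.2 or above in both. GLUL/GS2 lies at 0.394 and 0.522, whereas FAM162A/CG9231 lies at 0.371 and 0.173.

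To show these genes as levels, barcodes were split by RNASEX25 among 500 drawn UMIs into 0, 1 to 2, 3 to 9, and 10 or more. In the mixed sample the 4 bands held 1185, 466, 458 and 144 barcodes, and in the young sample 1229, 472, 338 and 60. Their median depths were 1002, 799, 945 and 968 UMIs in the mixed sample and 787, 903, 885 and 836 in the young sample. CPM of other genes in these bands leaves RNASEX25 out of the total.

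GLUL/GS2 (DAPMA1EVG018780), glutamine synthetase, which makes glutamine from glutamate and ammonia, had r of 0.394 in the mixed sample, the highest of all genes, and 0.522 in the young sample, the fourth highest. Over the 4 bands it ran 355, 1237, 2974 and 5498 CPM in mixed barcodes, a ratio of highest over lowest band of 15.5 (interval 13.9 to 17.2). In young barcodes it ran 754, 2015, 4229 and 12513 CPM, a ratio of 16.6 (15.1 to 18.3). The same comparison within single codes gave 8.02 in FYB, 13.6 in CH1 and 14.8 in CH2, and r was between 0.287 and 0.541 in each of the 8 codes.

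A ferritin chain and a fatty acid binding protein rose alongside. FTH1/FER3HCH (DAPMA1EVG029148), a ferritin heavy chain that stores iron, had r of 0.351 and 0.429 in the mixed and young sample. It was at 8869 CPM in the highest against 1396 CPM in the 0 band of mixed barcodes, and at 10321 against 1865 CPM in young barcodes. FABP3/FABP (DAPMA1EVG014822), a fatty acid binding protein, had r of 0.344 and 0.443, with 2579 against 97.1 CPM in mixed and 9631 against 562 CPM in young barcodes. Within codes the band ratio of FABP3/FABP was 9.12 in FYB and 12.1 in CH1, and that of FTH1/FER3HCH was 3.08 in FYB and 4.03 in CH2. In MY2 the r of FABP3/FABP was -0.03, so it did not rise in every code.

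Symbol-bearing genes made up 19 of the 33, and further ones among them are given next. SLC29A3/ENT2 (DAPMA1EVG027988), whose human counterpart moves nucleosides across lysosomal membranes, had r of 0.208 and 0.406 in the mixed and young sample. Its band ratio was 9.70 (interval 8.05 to 11.7) in mixed and 1.74 (1.26 to 2.36) in young barcodes, but within young codes it was 1.39 (0.837 to 2.19) in CH1 and 1.41 (0.892 to 2.13) in CH2, intervals that include 1. Over the 4 young bands it ran 446, 2032, 3117 and 777 CPM. SLC20A1/NAPI (DAPMA1EVG014132), a phosphate transporter, had band ratios of 8.60 and 2.67 in mixed and young barcodes. SLC16A14/CG13907 (DAPMA1EVG012183), of the monocarboxylate transporter family, had r of 0.207 and 0.348. It was at 730 against 66.6 CPM in the highest and the 0 band of mixed barcodes. Over the 4 young bands it ran 401, 1638, 1734 and 138 CPM. It was thus below the 0 band only in the highest young band, a ratio of 0.345 (interval 0.148 to 0.684). Of the 60 young barcodes in that band, 47 were in cluster 16. SLC25A29/CG4995 (DAPMA1EVG023354), a mitochondrial carrier, had band ratios of 7.35 and 8.90 in mixed and young barcodes. The sodium pump beta subunit ATP1B1/NRV3 (DAPMA1EVG001527) had 5.56 and 2.01. Among enzymes, the epoxide hydrolase EPHX1/JHEH2 (DAPMA1EVG016310) had 5.32 in mixed barcodes but 1.05 (interval 0.624 to 1.66) in young ones, and the aldehyde dehydrogenase ALDH3B1/ALDH (DAPMA1EVG031583) had 10.9 and 3.55. Over the 4 young bands EPHX1/JHEH2 ran 313, 655, 717 and 328 CPM. HNF4G/HNF4 (DAPMA1EVG021359), a nuclear receptor that controls lipid metabolism genes in flies and mammals, had a band ratio of 20.3 in mixed barcodes and 1.81 (interval 0.805 to 3.55) in young ones. PIWIL1/AUB (DAPMA1EVG018095), of the Piwi family that silences transposons in the animal germline, had 16.5 and 2.68. Of the 33 genes, 29 were higher in the highest than in the 0 band in both samples, 27 of them with both intervals above 1. The 33 were chosen by r over these same barcodes, so these counts are a description and not a further test. The share over all measured genes was not counted.

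Several of the strongest partners carry no symbol. Gene m000009F_a5.40 (DAPMA1EVG002580) had r of 0.352 and 0.566 in the mixed and young sample, and 30170 against 2900 CPM in the highest and the 0 band of young barcodes. Gene m000010F_a8.56 (DAPMA1EVG013792) had r of 0.273 and 0.519 and band ratios of 18.3 and 36.6 in mixed and young barcodes. It is also among the leading genes of cluster 8, at 21642 CPM there. Among the remaining genes of highest r, FBN2/FRAC (DAPMA1EVG014221), named for a fibrillin of the extracellular matrix, had band ratios of 11.3 and 2.50 in mixed and young barcodes, while SPON1/FAT (DAPMA1EVG031870) had 10.1 and 0.919 (interval 0.658 to 1.25). Within FYB the ratio was 5.50 for FBN2/FRAC and 7.88 for SPON1/FAT. Over the 4 young bands SPON1/FAT ran 789, 1413, 1606 and 725 CPM. LENG1/SMYDA (DAPMA1EVG020931) had band ratios of 5.48 and 5.98 in mixed and young barcodes.

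**Figure D5:**
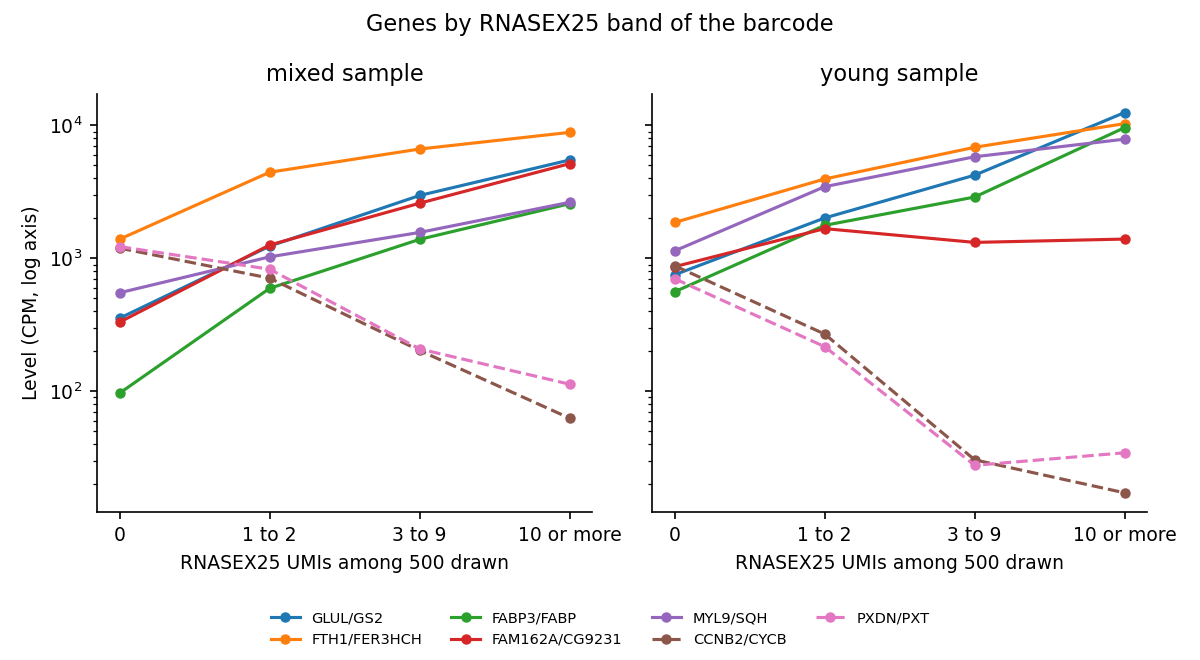
Level in CPM (log axis) of 7 genes in barcodes grouped by RNASEX25 UMIs among 500 drawn (0, 1 to 2, 3 to 9, 10 or more), mixed sample left and young sample right. GLUL/GS2 climbs to 5498 CPM in the mixed and 12513 CPM in the young sample, FAM162A/CG9231 climbs in the mixed sample and ends at 1398 CPM in the young one, and the dashed cyclin and peroxidase genes decline.

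Some genes passed r of 0.2 in 1 sample and not in the other, a difference that was not tested. FAM162A/CG9231 (DAPMA1EVG016143) was second by r in the mixed sample at 0.371, with 5158 against 332 CPM in the highest and the 0 band, a ratio of 15.5 (interval 13.9 to 17.4). In the young sample its r was 0.173, with 1398 against 867 CPM, a ratio of 1.61 (1.27 to 2.02). A2ML1/TEP2 (DAPMA1EVG025536), of the thioester protein family known from insect immunity, had r of 0.296 in the mixed and 0.126 in the young sample. Its band ratio was 10.7 in mixed barcodes and 0.108 (interval 0.0294 to 0.278) in young ones. Over the 4 young bands it ran 638, 728, 547 and 69.0 CPM, so most of the drop came in the highest band. Within codes the band ratio was 10.8 (interval 8.70 to 13.4) in FYB and 0.181 (0.0371 to 0.537) in CH2. In CH1 the gene was at 40.9 CPM in the highest against 512 CPM in the 0 band. The CH1 ratio was 0.239 with the count of the highest band raised to 3, and its interval from the count itself was 0.00201 to 0.448. The highest young band held only 4 UMIs of this gene over all codes.

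MYL9/SQH (DAPMA1EVG025392), a myosin regulatory light chain, had r of 0.205 in the mixed and 0.539 in the young sample. It was at 2642 CPM in the highest against 552 CPM in the 0 band of mixed barcodes, and at 7888 against 1140 CPM in young ones. The mixed band ratio was 4.79 over all codes and 2.75 within FYB. Gene s000001F_p1.10 had the highest r of the young sample, 0.568, but 0.031 in the mixed sample, where its level over all kept barcodes was 27.3 CPM, against 4387 CPM in the young sample. MED24/MED24 (DAPMA1EVG032861), named for a Mediator subunit, had r of 0.067 and 0.450 in the mixed and young sample, with levels of 74.8 and 1635 CPM. PNLIPRP1/CG6847 (DAPMA1EVG018988), of the pancreatic lipase family, had r of 0.075 and 0.234 in the mixed and young sample. It was at 1812 CPM in the highest against 62.5 CPM in the 0 band of young barcodes, a ratio of 29.0 (interval 21.6 to 39.1), and at 365 against 43.8 CPM in mixed ones.

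Fewer genes fell than rose in the young sample and more in the mixed sample. At r of -0.2 or below there were 112 genes in the mixed sample (1.69%) and 52 in the young sample (0.922%), and 43 were shared, 38.4% of the mixed and 82.7% of the young list. Among the symbol-bearing genes of lowest r were cell cycle genes. CCNB2/CYCB (DAPMA1EVG019766), a B-type cyclin of mitosis, had r of -0.35 and -0.27 in the mixed and young sample. It was at 62.9 CPM in the highest against 1195 CPM in the 0 band of mixed barcodes, and at 17.3 CPM, from 1 UMI, against 880 CPM in young ones. CCNB1/CYCB (DAPMA1EVG030556) was at 50.3 against 1357 CPM in mixed barcodes. FKBP2/FKBP14 (DAPMA1EVG021629), a prolyl isomerase of the endoplasmic reticulum, had r of -0.38 and -0.26, and TP73/P53 (DAPMA1EVG011718), of the p53 family, -0.36 and -0.24. PXDN/PXT (DAPMA1EVG033120), a peroxidase, was at 113 against 1226 CPM in mixed barcodes.

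Sums of the marker lists differed between these bands, and their part in the gene lists was not tested. Proliferating-cell markers summed to 371 CPM in the highest against 4590 CPM in the 0 band of mixed barcodes (10 and 13 of 14 markers with a UMI), and to 259 against 2555 CPM in young ones (8 and 13). Hemocyte markers summed to 7228 against 4720 CPM in mixed barcodes (22 and 28 of 32 with a UMI) and to 2554 against 6236 CPM in young ones (15 and 28). Ion-transport epithelium markers summed to 7687 against 4363 CPM in mixed and to 7922 against 5976 CPM in young barcodes, with 23 and 35 of 39 detected in mixed and 19 and 30 in young ones. Epidermis markers summed to 3856 against 4282 CPM in mixed barcodes (34 and 51 of 88) and to 1053 against 8608 CPM in young ones (11 and 52). Muscle markers summed to 2812 against 776 CPM in mixed barcodes (13 and 12 of 14) and to 1087 against 1897 CPM in young ones (6 and 13). Fat cell markers came to 1164 against 391 CPM in mixed barcodes (7 and 9 of 9) and to 621 against 358 CPM in young ones (6 and 8). Neuron markers came to 1113 against 1055 CPM in mixed barcodes (8 and 10 of 12) and to 3193 against 1555 CPM in young ones (5 and 11). Photoreceptor, digestive and germline markers were at 598 against 1546, 1000.2 against 817 and 893 against 1998 CPM in mixed barcodes, and at 501 against 1167, 207 against 911 and 690.4 against 1091 CPM in young ones. Compared with the 0 band, proliferating, photoreceptor, germline and epidermis sums were lower in the highest band in both samples. Hemocyte, muscle and digestive sums were higher there in the mixed and lower in the young sample. From the 0 band upward, hemocyte sums ran 4720, 12138, 12550 and 7228 CPM in mixed barcodes. In young barcodes they ran 6236, 6788, 8280 and 2554 CPM, so only the highest band was below the 0 band. Of the 60 young barcodes in the highest band, 47 were in cluster 16. In mixed barcodes epidermis sums ran 4282, 6948, 7805 and 3856 CPM. Photoreceptor sums there ran 1546, 3654, 1201 and 598 CPM. The code MY2 made up 35.9% of the mixed 0 band and Y2 39.2% of the young one, which the ratios within FYB, CH1 and CH2 leave out.

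Gene lists were described next, some for the lysosome, where human RNASET2 works, and others for functions not tied to T2 ribonucleases. All lists were chosen with earlier results of these data known. Of 29 lysosomal hydrolases and membrane proteins measured in the mixed sample, 0 rose and 1 fell, with a median r of 0.05, and of 27 in the young sample 4 rose and 1 fell, with a median r of 0.04. The 4 were PSAP/SAP, a saposin precursor, the cathepsins CTSB/CTSB1 and CTSC/SWIM, and the lipase LIPF/LIP4. CTSB/CTSB1 (DAPMA1EVG019691) had r of 0.165 and 0.264 in the mixed and young sample and band ratios of 2.33 (interval 1.91 to 2.83) and 3.74 (2.69 to 5.10). CTSC/SWIM (DAPMA1EVG023900) had r of 0.156 and 0.273 and band ratios of 3.37 and 6.27. The shares that rose stood against 0.740% and 3.23% of all genes in the mixed and young sample.

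Of subunits of the vacuolar proton pump, which acidifies lysosomes, 0 of 11 passed r of 0.2 in the mixed and 0 of 10 in the young sample, with medians of 0.01 and 0.08 and r above 0 for 8 in each. Of other ribonucleases 0 of 21 and 0 of 15 passed, with medians of -0.04 and -0.01, and of genes of the endoplasmic reticulum secretory pathway 0 of 30 in each, with medians of -0.03 and 0.02. Since 0.740% and 3.23% of all genes passed, 0 in lists of this size says little about their members. Among their most abundant members, the pump subunit ATP6V0C/VHA16 had -0.13 and 0.100 in the mixed and young sample, the exosome subunit EXOSC9/RRP45 -0.13 and -0.01, and the disulfide isomerase P4HB/PDI 0.101 and -0.01. Of secreted digestive enzymes 0 of 34 rose in the mixed sample, and 2 of 31 in the young sample, PNLIPRP1/CG6847 and LIPF/LIP4. LIPF/LIP4 (DAPMA1EVG017797) stands on both lists, with a band ratio of 13.8 in mixed and 0.973 (interval 0.439 to 1.88) in young barcodes. In the lipid transport and yolk list only FABP3/FABP rose, 1 of 14 in the mixed and 1 of 9 in the young sample, and in the iron storage list only FTH1/FER3HCH, 1 of 5 in each. Both genes are among those of highest r already named above. Of scavenger and endocytic genes 0 of 12 rose in the mixed sample, and 3 of 13 in the young sample, RAB5C/RAB5, EHD3/PAST1 and RAB11A/RAB11. Of 6 translation elongation factors 0 rose in either sample and 1 fell in the mixed one.

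Genes whose levels correlated with RNASEX25 over codes were sought separately. Over the 7 mixed codes, which share depth and free RNA within a code, 185 of 6623 genes (2.79%) had r of at least 0.9 with RNASEX25 on log2(CPM + 1). MY1 and MY2 lie far from the other codes, and a high r does not mean the same order among the others. The 5 most alike were TMPRSS11D/CG9372 at 0.998, PLSCR1/SCRAMB1 at 0.995, m000018F_a12.49 at 0.988, a second ATP1B1/NRV3 gene (DAPMA1EVG017864) at 0.987 and CIB1/CIB2 at 0.983. TMPRSS11D/CG9372 (DAPMA1EVG018885), of the trypsin-like serine protease family, ran from 49.9 to 90.3 CPM in the 5 high codes and was at 3.26 CPM in MY1 and 1.62 in MY2. Its r across barcodes was -0.06 in the mixed sample, so likeness over codes and over barcodes did not go together for it. ATP1B1/NRV3 (DAPMA1EVG017864) had r of 0.130 across mixed and 0.243 across young barcodes, and band ratios of 5.73 and 5.14.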

How the data were processed

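For each sample the authors deposited raw counts as a sparse matrix with lists of its barcodes and genes; per the file headers the values are integers. Aligner settings, genome build and UMI collapsing are not given in the sources used here. Counts are called UMIs because inDrops reads carry them. The mixed matrix lists 48846 barcodes and the young matrix 442368, so they were filtered differently before deposit. Names come from the gene lists, since none matched the RefSeq table, and no sequence was at hand to print.

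The gene, the lists and the tests were chosen with earlier results of these data known. Barcodes with at least 500 UMIs were kept. Sums per sample and code were expressed as CPM with exact Poisson intervals, and shares with Clopper-Pearson intervals. In band ratios a count under 3 was set to 3, while their intervals used the counts themselves. Thinning drew 500 UMIs per barcode without replacement. Correlations used log1p of counts per 10000, centred within code. Clustering used scanpy 1.11.5 and leidenalg 0.10.2 with 2000 variable genes, values scaled within each sample, 30 components, 15 neighbours and resolution 1; a marker counted at 4-fold the other barcodes and in 10% of the cluster, a rule set after the files were seen. Scrublet called 1 mixed and 6 young barcodes, too few to count as working, and no doublet was removed.

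Named genes were the 12 of highest r per sample, the 6 symbol-bearing ones of lowest r, the 5 most alike over mixed codes, list members at r of at least 0.2 and otherwise the 2 most abundant, and the 3 highest and lowest clusters; genes that rose in both samples were added after their values were seen, and 1 gene that the rule names is not reported here. The correlation step was tested on simulated data. With 1 sample per group, no p-value is given. Alternatives were other UMI minimums, TMM (edgeR 4.0.16) and DESeq2 1.42.0 size factors on the summed counts, each code left out, thinning, other scales and resolutions; leaving out several codes together and averaging over barcodes were chosen after seeing the data.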

Additional observations from a re-analysis of the deposited data

Results flagged for a closer look

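Barcodes under 500 UMIs were left out of the main levels, and RNASEX25 was counted in them well above the limit of 3 counts. In the mixed sample 46593 such barcodes had 4860 CPM (interval 4802 to 4919), and in the young sample 440269 such barcodes had 890 CPM (871 to 909). The level of kept over shallow barcodes was 0.872 (interval 0.854 to 0.892) in the mixed sample and 3.21 (3.11 to 3.32) in the young sample. By code this ratio was lowest in MY2 at 0.433 and highest in CH2 at 3.41, and it was 1.13 in FYB and 2.31 in Y2. The deposited matrices start at different depths, so these shallow barcodes are not alike in kind between the samples, and the part of free RNA was not tested.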

How the results depend on the processing

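No paired analysis was possible because each group has 1 sample. Codes are parts of 1 sample whose meaning is not given, and leaving each out in turn gave 2293 (without FYB) to 5394 CPM (without MY2) in the mixed sample, 2297 (without CH2) to 3544 CPM (without Y2) in the young sample, and a log2 ratio of mixed over young of -0.32 (without FYB) to 0.92 (without MY2). It gave shares with a UMI of 32.3 to 67.4% in mixed and 43.5 to 60.9% in young barcodes, and 42 to 63 and 167 to 209 rising genes in the mixed and young sample. The log2 ratio was 0.85 at a minimum of 300 UMIs, 0.49 at 1000, 0.0944 with TMM, 0.0542 with DESeq2 size factors, 1.88 over every deposited barcode, 0.62 as mean CPM over barcodes, 1.12 without MY1 and MY2 and 0.81 without MY1, MY2 and Y2. TMM and DESeq2 shifted the log2 ratio of all genes by -0.47 and -0.51. The mixed level was 4429 CPM at 300 UMIs, 4038 at 1000, 3598 with TMM, 3549 with DESeq2, 4653 over every barcode, 4587 as mean CPM and 6232 without MY1 and MY2. The young level was 2465 CPM at 300 UMIs, 3370 with TMM, 3418 with DESeq2, 1268 over every barcode and 2984 as mean CPM. The young share with a UMI was 33.6% at 300 and 64.3% at 1000 UMIs, and thinning gave 47.4% of mixed and 41.4% of young barcodes. Rising genes in the mixed sample numbered 23 at 300 UMIs, 118 at 1000, 23 after thinning and 130 without centring, and in the young sample 91 after thinning and 275 without centring. The highest cluster stood at 23513 CPM at resolution 0.5 and at 2, and at 23847 CPM with a minimum of 300 UMIs. The causes were not tested.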
